A study of Mus musculus with 5 samples.

Results

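The 6 genes described here encode proteins of DNA mismatch repair: Msh3, Msh6, Mlh3, Pms1, Pms2 and Exo1. They were taken by name, with earlier results of these data known, and are 6 of the 32285 gene symbols in the deposited table. All 6 were measured and all 6 passed the filter on low values, a level of at least 1 in at least 2 libraries, that 12734 genes passed. RNA-seq libraries came from mouse embryos at the 2-cell stage, 3 from embryos exposed to 25 nM PNMC and 2 from controls given an equal volume of DMSO, the solvent. PNMC is not spelled out in the labels, which name no strain, genotype or embryo number. In both groups, eggs of superovulated females aged 6 to 9 weeks were inseminated for about 6 h with sperm of males aged 12 to 16 weeks, and zygotes were then kept for 24 h in KSOM, an embryo culture medium. The labels do not say whether libraries came from separate cultures, so the p-values below concern only these libraries. Those of limma set a group difference against the spread among libraries, moderated over all genes tested. That spread could be technical. In RNA that is not separated by cell, fewer transcripts per cell and a smaller share of cells holding them cannot be told apart.

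Mismatch repair removes bases that DNA polymerase has paired wrongly and small loops left where it slipped on repeats. Proteins of the MutS family work as heterodimers that find the error. The dimer with Msh6 mainly recognises single mispairs and short loops, and the dimer with Msh3 recognises larger loops. MutL heterodimers are then recruited, the exonuclease Exo1 removes the new strand past the error, and polymerase and ligase refill the gap. Early embryos divide on proteins and transcripts laid down in the oocyte, and the 2-cell stage is when mouse embryos begin broad transcription of their own genome.

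The genes themselves lie on chromosomes 13 (Msh3), 17 (Msh6), 12 (Mlh3), 1 (Pms1 and Exo1) and 5 (Pms2). Pms1 starts beside Ormdl1 and Pms2 beside Aimp2, genes that are read in the opposite direction, each pair with annotated starts less than 1000 bases apart. The stretches between the starts of Pms1 and Ormdl1 and of Pms2 and Aimp2 are shown because the levels of both neighbours are compared below. They hold the bases that neither RefSeq nor GENCODE M21 annotates as transcribed. Both come from RefSeq's GRCm38.p6, an earlier build than the GRCm39 named in the submitters' processing notes. Each is written 5′ to 3′ on the strand of the repair gene, with CCAAT boxes (CCAAT or ATTGG) and GC boxes (GGGCGG or CCGCCC) in capitals.
Pms1 to Ormdl1, chr1:53297029-53297094, minus strand: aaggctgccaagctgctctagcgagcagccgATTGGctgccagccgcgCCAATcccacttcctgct
Pms2 to Aimp2, chr5:143909848-143909963, plus strand: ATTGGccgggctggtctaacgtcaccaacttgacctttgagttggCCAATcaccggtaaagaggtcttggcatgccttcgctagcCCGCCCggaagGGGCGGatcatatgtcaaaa

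The 66 bases between Pms1 and Ormdl1 hold 2 CCAAT boxes, 1 on each strand, and no GC box. The 116 bases between Pms2 and Aimp2 hold 2 CCAAT boxes and 2 GC boxes, again on both strands. Over the 250 bases before each start, Msh6 held 5 GC boxes and 1 CCAAT box, Mlh3 held 0 and 1, Pms1 held 0 and 2, and Pms2 held 2 and 3. Among 27025 mouse promoters of that length, 32.9% held a GC box and 34.5% a CCAAT box on either strand. All of these 4 windows were rich in CG dinucleotides, from 14 for Pms2 to 27 for Msh6, where the median promoter held 6. A match to such letters is a description of the sequence and does not show that a factor binds there. Msh3 and Exo1 were not part of this search.

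The table lists normalised expression levels in an unstated unit; without read depth, no counting interval is given. They summed to between 446010 and 454548 in the 5 libraries, and between 17408 and 18595 genes were listed above 0. All 9 genes of the 2-cell embryo and oocyte list were detected. Their sum was 8369 to 8823 in controls and 8522 to 9203 after PNMC. The list includes maternal transcripts of the oocyte, so its sum does not by itself set the stage. Btg4, which promotes the decay of maternal mRNA, averaged 3486 ± 122 (SD, n = 2) and 3611 ± 268 (SD, n = 3), and Dppa3, a maternal protector of DNA methylation, averaged 3107 ± 76.3 and 3296 ± 157. Of 10 markers of cumulus and granulosa cells, which surround the oocyte, 3 were tested and Foxl2, Ptx3 and Inhba were listed at 0 in every library. Their summed level was 29.2 to 29.5 in controls and 22.1 to 33.7 after PNMC, mostly from Amhr2 (22.2 ± 0.808 and 20.5 ± 4.90), with Cyp19a1 next (3.21 ± 1.06 and 3.36 ± 0.669). Of 8 sperm markers only Prm2 was tested, Prm1, Tnp2 and Smcp were listed at 0 throughout, and the sum was 4.22 to 4.60 in controls and 4.54 to 6.89 after PNMC. Prm2 averaged 3.97 ± 0.0821 and 5.18 ± 0.624 and was above both controls in all 3 PNMC libraries, as were 7.97% of all genes tested. Odf1 averaged 0.174 ± 0.120 and 0.367 ± 0.635. The blood and oviduct markers summed to 69.0 to 75.0 and 54.8 to 96.4, mostly from the epithelial adhesion gene Epcam (53.7 ± 1.28 and 57.4 ± 22.1), and the haemoglobin gene Hba-a1 averaged 7.73 ± 0.799 and 6.14 ± 1.79. Of the 8 markers of this list only 3 were tested. Ovgp1 averaged 0.645 ± 0.254 and 0.712 ± 0.475 and Foxj1 averaged 0.310 ± 0.165 and 0.717 ± 0.686, and neither passed the filter. Cd74, the invariant chain of antigen-presenting cells, averaged 9.09 ± 5.24 and 4.55 ± 1.17. It was the 1 of the 3 tested markers of that list without overlap (limma unadjusted p = 0.0478, adjusted p = 0.986), with PNMC library 3 just under control library 1. Of all genes tested, 11.9% lay below both controls in this way. In the embryo and oocyte list, Dppa3 lay above both controls in every PNMC library and Zp3 lay below both. The part of these markers in the results below was not tested.

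None of the 6 repair genes passed the test for a PNMC effect (limma, adjusted p below 0.05). The background rate of such calls was 0%, since none of the 12734 genes tested with limma's moderated test on log2(level + 1) passed after Benjamini-Hochberg adjustment. At an unadjusted p under 0.05 there were 636 genes, or 4.99%, and none of the 6 repair genes was among them. Their mean log2 values were higher after PNMC in 4 genes and lower in 2, and their median log2 difference was 0.15, where that of all genes tested was -0.05. Without control library 1 that median was -0.06. For Pms2 and Mlh3 the highest PNMC value was under the lowest control value. The share of all tested genes with that arrangement was 11.9%, and 7.97% had the opposite arrangement, which none of the 6 showed.

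**Figure D1:**
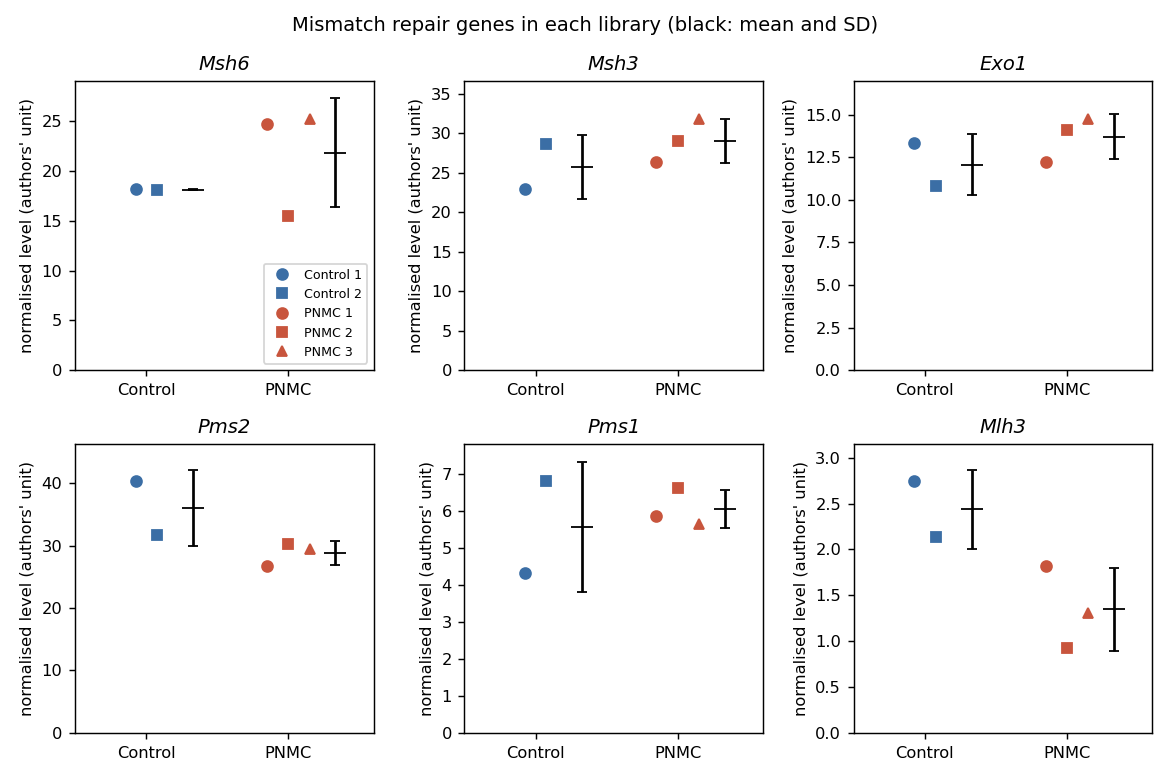
Normalised level of each mismatch repair gene in each library, on a linear axis from 0 in the authors' unit. Points are libraries, and black bars are the group mean and SD (2 controls, 3 PNMC). Pms2 and Mlh3 are the panels in which every PNMC point is below both controls.

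Msh6 gives the MutS dimer its specificity for single mispairs. Its level was 18.1 in both control libraries and 24.7, 15.5 and 25.2 in PNMC libraries 1, 2 and 3. PNMC libraries 1 and 3 lay above the controls and PNMC library 2 lay below them, so the groups overlapped. The controls averaged 18.1 ± 0.0524 (SD, n = 2) and the PNMC libraries 21.8 ± 5.46 (SD, n = 3), a log2 difference of 0.23 (SE 0.242, 95% interval -0.30 to 0.75, limma adjusted p = 0.993). The change was 0.12 without PNMC library 1, 0.11 without PNMC library 3 and 0.44 without PNMC library 2, where it still did not pass (limma adjusted p = 0.854).

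Msh3 is the MutS protein for larger loops and is known for acting at expanded repeats. Levels were 22.9 and 28.6 in the controls against 26.3, 29.0 and 31.8 under PNMC. Control library 1 was the lowest and PNMC library 3 the highest, with control library 2 inside the PNMC range. Means were 25.7 ± 4.06 and 29.0 ± 2.77, a log2 difference of 0.17 (SE 0.1999, 95% interval -0.26 to 0.60, limma adjusted p = 0.993). The change was 0.02 without control library 1 and 0.33 without control library 2.

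Both MutS genes were thus detected in every library, with a mean listed level of 27.7 for Msh3 and 20.3 for Msh6. The log2 ratio of Msh6 to Msh3, taken on level + 1 like the others below, was -0.32 and -0.63 in the controls against -0.09, -0.86 and -0.32 in PNMC libraries 1, 2 and 3, so Msh6 was the lower of the pair in every library. The group means differed by 0.05 (exact two-sided permutation test, p = 1; adjusted over 3 ratios, 1). The direction turned without control library 2, at -0.11, and without PNMC library 1, at -0.12. With 10 ways to split 5 libraries into 3 and 2, no such test can give a p below 0.2.

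Exo1 is the exonuclease that degrades the strand carrying the error, and it also resects DNA ends in recombination. Levels were 13.3 and 10.8 in the controls against 12.2, 14.1 and 14.8 under PNMC. PNMC libraries 2 and 3 were the highest, and PNMC library 1 lay between the controls. Means were 12.1 ± 1.77 and 13.7 ± 1.32, a log2 difference of 0.17 (SE 0.235, 95% interval -0.34 to 0.68, limma adjusted p = 0.993). Leaving out control library 2 reduced it to 0.03, and leaving out control library 1 gave 0.31.

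Pms2 is the main MutL endonuclease subunit, which nicks the new strand so that removal can start. Its mean listed level over all 5 libraries was the highest of the 6, while in PNMC library 3 Msh3 was higher. Levels were 40.3 and 31.6 in the controls against 26.7, 30.3 and 29.5 under PNMC. Every PNMC library lay below both controls, by a small margin under control library 2 and a larger one under control library 1. Means were 36.0 ± 6.10 and 28.8 ± 1.91, a log2 difference of -0.30 (SE 0.193, 95% interval -0.72 to 0.11, limma adjusted p = 0.993). The change was -0.13 without control library 1 and -0.47 without control library 2.

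Mlh3 carries the other MutL endonuclease and is known mainly for resolving crossovers in meiosis. It was the lowest of the 6, at 2.74 and 2.13 in the controls against 1.82, 0.921 and 1.30 under PNMC. The groups did not overlap, and PNMC library 2 was lowest. Means were 2.44 ± 0.432 and 1.35 ± 0.451, a log2 difference of -0.56 (SE 0.376, 95% interval -1.37 to 0.25, limma adjusted p = 0.993). At this level the pseudocount of 1 holds the change down: with a pseudocount of 0.1 it was -0.85 (limma adjusted p = 0.987).

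Pms1 belongs to the MutL family but lacks the endonuclease motif of Pms2 and Mlh3, and its part in repair is less clear. Levels were 4.33 and 6.81 in the controls against 5.88, 6.63 and 5.66 under PNMC. All 3 PNMC libraries lay between the controls. Means were 5.57 ± 1.75 and 6.05 ± 0.510, a log2 difference of 0.13 (SE 0.297, 95% interval -0.51 to 0.77, limma adjusted p = 0.993). Without control library 1 the direction turned, at -0.15.

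The balance of the MutL genes was compared within libraries, since they compete for a common partner. The log2 ratio of Pms2 to Pms1 was 2.95 and 2.06 in the controls against 2.01, 2.04 and 2.20 under PNMC. Control library 1 stood above the other four values, which lay close together. The difference between group means was -0.43 (exact two-sided permutation test, p = 0.4; adjusted over 3 ratios, 0.9), and 0.0158 without control library 1. For Pms2 to Mlh3 the log2 ratio was 3.46 and 3.38 in the controls against 3.29, 4.03 and 3.73 under PNMC. PNMC library 1 lay below the controls and the remaining PNMC libraries above them, a difference of 0.26 (exact two-sided permutation test, p = 0.6; adjusted over 3 ratios, 0.9). That difference was 0.0873 without PNMC library 2, 0.45 without PNMC library 1 and 0.54 with a pseudocount of 0.1.

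The levels spanned a wide range across the repair genes. The mean over 5 libraries was 31.7 for Pms2, 27.7 for Msh3, 20.3 for Msh6, 13.0 for Exo1, 5.86 for Pms1 and 1.78 for Mlh3. Neighbours in that order overlapped between libraries for Pms2 and Msh3 and for Msh3 and Msh6. The lowest Msh6 value was above the highest Exo1 value, the lowest Exo1 value was above the highest Pms1 value, and the lowest Pms1 value above the highest Mlh3 value. It is not stated whether the unit is already scaled by gene length. Dividing by the longest GENCODE M21 transcript gave 6.52 for Msh3, 5.14 for Pms2, 4.78 for Msh6, 1.92 for Pms1, 1.67 for Exo1 and 0.326 for Mlh3 per 1000 bases. Msh3, Msh6 and Pms2 were the upper 3 and Mlh3 the lowest on either scale. Among the genes tested, the listed level of Pms2 lay at percentile 77.9 to 84.1 across the libraries, and that of Mlh3 at percentile 8.22 to 28.4.

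The members did not all rise and fall together in these libraries, and no pair was tested. Over 5 points, which are the same libraries for every gene, Pearson's r of log2 values ranged from -0.757 for Msh3 with Mlh3 to 0.701 for Msh3 with Pms1 among the 15 pairs. For Pms2 with Mlh3 it was 0.611. The spread within groups was below the median of genes of like level for 5 of the 6: the residual SD was 0.157 for Exo1, 0.158 for Pms2, 0.167 for Msh3, 0.240 for Pms1 and 0.249 for Mlh3. Msh6 was the exception, at 0.308 against a median of 0.234, and lay above 73.3% of such genes.

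Genes with the most similar pattern over the 5 libraries were sought by Pearson's r of log2 values among tested genes whose mean level was 5 or more, 7393 for each member and 7394 for Mlh3. The nearest to Msh3 were Osgepl1 (r = 0.993) and Rttn (0.989), and the nearest to Msh6 were Ppan (0.997) and Nfil3 (0.995). For Mlh3 they were Ubxn2b (0.998) and Tkt (0.997), for Pms1 Smtn (0.996) and Lrrc59 (0.996), for Pms2 Ssr4 (0.999) and Ppp1r37 (0.999), and for Exo1 Strap (0.997) and Pigf (0.994). Between 39 and 64 genes, or 0.527% to 0.866% of those searched, had r above 0.95 with each member. Over 5 libraries and so many genes searched, values of r this high can arise between unrelated genes. No r was tested, so the genes named are not shown to be linked to the members.

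Ormdl1, a regulator of sphingolipid synthesis, was listed at 0.625 and 0.966 in the controls against 0.806, 0.252 and 0.239 under PNMC, and did not pass the filter. Pms1 was between 6.92 and 26.3 times higher in each library than the gene that starts on the far side of the 66 bases shown above. Aimp2 encodes a scaffold of the aminoacyl-tRNA synthetase complex. Its level was 43.7 and 38.8 in the controls against 54.8, 51.5 and 38.3 under PNMC, a log2 difference of 0.21 (SE 0.194, limma adjusted p = 0.993). Pms2 and Aimp2 therefore differed in the sign of their estimates, though neither passed the test. The ratio of Pms2 to Aimp2 in listed levels was 0.921 and 0.816 in the controls against 0.486, 0.588 and 0.771 in PNMC libraries 1, 2 and 3. That ratio was not tested. Msh6 meets its neighbour Fbxo11, a ubiquitin ligase subunit, at the other end, where the genes overlap by 34 bases, and reads there cannot be assigned because Smart-seq2 keeps no strand. Fbxo11 stood at 11.6 and 9.54 in the controls against 9.83, 11.3 and 15.9 under PNMC, and only PNMC library 3 lay clearly above the others.

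**Figure D2:**
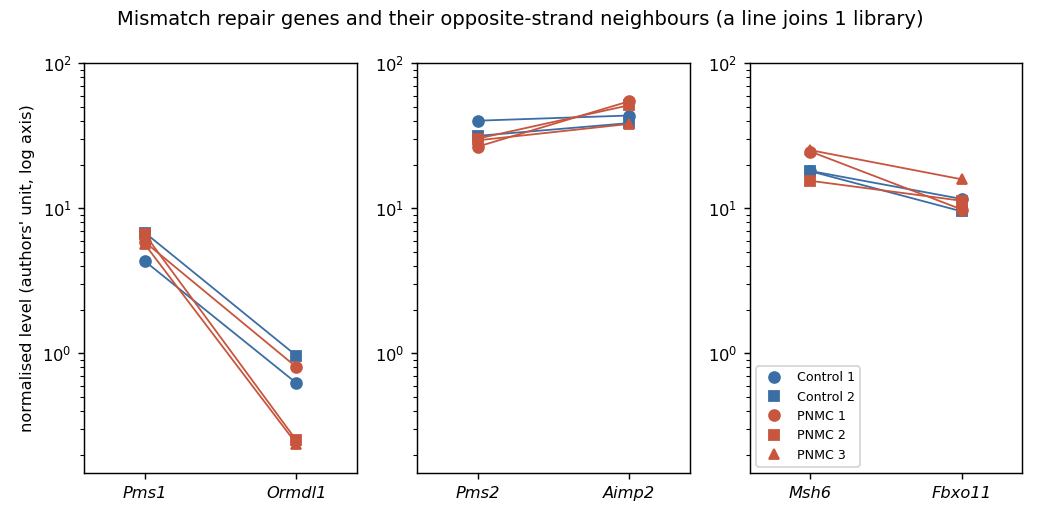
Level of Pms1, Pms2 and Msh6 (left of each panel) and of the neighbouring gene on the opposite strand (right), on a log axis in the authors' unit. Each line joins the values of 1 library. Pms1 lies above Ormdl1 in every library, while Pms2 lies below Aimp2 in every library.

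The proteins that act with the 6 were followed in 6 lists of 38 genes, of which 35 were tested. None passed at an adjusted p under 0.05. Mean log2 values were higher after PNMC in 16 and lower in 19, with a median log2 change of -0.01. In 8 genes the groups did not overlap, 4 in each direction, where 19.9% of all genes tested had no overlap. The 4 above the controls include Rnf212, which passed the filter only through its PNMC values.

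Among the sliding clamp and its loader, which direct repair to the new strand, all 6 genes overlapped between groups, with a median log2 change of -0.12. Pcna, the clamp, stood at 101 and 108 in the controls against 103, 86.9 and 92.6 under PNMC. Rfc3 averaged 11.8 ± 4.61 and 7.92 ± 1.91, and Rfc4 averaged 5.32 ± 2.72 and 3.51 ± 2.96. Rfc4 was at 7.24 in control library 1 and 6.91 in PNMC library 1 but at 3.40 or less in the other libraries, a spread within each group that was larger than the difference between them.

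Replication protein A coats the single strand that Exo1 exposes. Rpa1 stood at 19.5 and 21.01 in the controls against 28.9, 21.03 and 30.2 under PNMC, with PNMC library 2 just above control library 2. Like Msh6, it was lowest within the PNMC group in library 2. Rpa3 stood at 17.3 and 24.2 in the controls against 31.3, 33.1 and 25.2 under PNMC, a log2 difference of 0.51 (SE 0.218, limma adjusted p = 0.967). Rpa2 averaged 62.8 ± 17.7 and 57.2 ± 8.60 with overlapping groups, so the 3 subunits did not share a direction.

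Of the polymerases and ligase that refill the gap, 4 of 9 had higher and 5 lower values. Pold1, the catalytic subunit of polymerase delta, stood at 4.21 and 5.38 in the controls against 1.97, 3.11 and 2.32 under PNMC, a log2 difference of -0.75 (SE 0.335, limma adjusted p = 0.982). It was the member of this list without overlap. The accessory subunit Pold3 averaged 208 ± 12.9 and 208 ± 8.40. Pold4 averaged 1.48 ± 0.533 and 3.54 ± 1.92, with PNMC library 1 between the controls, and Pole4 averaged 230 ± 43.3 and 201 ± 13.1. Lig1, the ligase that seals the repaired strand, averaged 4.22 ± 1.98 and 3.87 ± 1.18.

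Helpers on chromatin gave 4 higher and 4 lower values among 8 tested genes, with a median log2 change of 0.00317. Setd2, the histone methyltransferase whose mark Msh6 binds, averaged 9.41 ± 1.58 and 9.14 ± 0.686. The subunits of the histone chaperone CAF-1 lay on opposite sides: Chaf1a was at 20.1 and 22.2 in the controls against 18.0, 18.0 and 15.04 under PNMC, and Chaf1b was at 18.5 and 16.8 and then 19.4, 25.0 and 19.9. Neither passed the test (limma adjusted p = 0.993 for each). Fen1, the flap nuclease, averaged 19.8 ± 6.00 and 14.7 ± 4.60.

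The list of meiotic relatives and partners held the largest estimate among the 35 genes, that of Rnf212, whose filter limit is given below. Msh4 and Msh5 form the MutS dimer of meiotic crossing over, where Mlh3 also acts. Msh4 stood at 4.65 and 9.61 in the controls against 10.9, 9.79 and 9.39 under PNMC, and Msh5 at 2.01 and 3.94 and then at 0.435, 1.42 and 1.20. Msh5 had a log2 difference of -0.97 (SE 0.412, limma adjusted p = 0.967) with no overlap, while Msh4 overlapped. Mus81, a structure-specific nuclease, stood at 21.1 and 23.5 in the controls against 12.8, 13.0 and 17.2 under PNMC (log2 change -0.62, SE 0.227, limma adjusted p = 0.967). Rnf212, which acts on Msh4 and Msh5 in meiosis, was at 1.64 and 0.287 in the controls against 5.68, 5.36 and 5.30 under PNMC, a log2 difference of 1.80 (SE 0.375, limma adjusted p = 0.437). Of the controls only library 1 reached the filter level of 1, so Rnf212 passed the filter only through its PNMC values. Of the 7 tested genes of the list, these 3, Msh5, Mus81 and Rnf212, were at an unadjusted limma p under 0.05, as were 5 of the 35 partners in all and 4.99% of all genes tested. Both counts include Rnf212, which its high PNMC values brought into the test, so no conclusion is drawn from them. The lists were chosen with earlier results of these data known, and whether these shares differ was not tested.

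Direct reversal of alkylated bases removes lesions that mismatch repair would otherwise meet. Mgmt, which repairs O6-alkylguanine, was listed at 0 in 3 libraries and at 0.336 in control library 2 and 0.4004 in PNMC library 3. Alkbh2 averaged 30.5 ± 5.62 and 26.2 ± 0.760, and Alkbh3 averaged 1.99 ± 0.652 and 1.17 ± 0.816, both with overlapping groups.

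**Figure D3:**
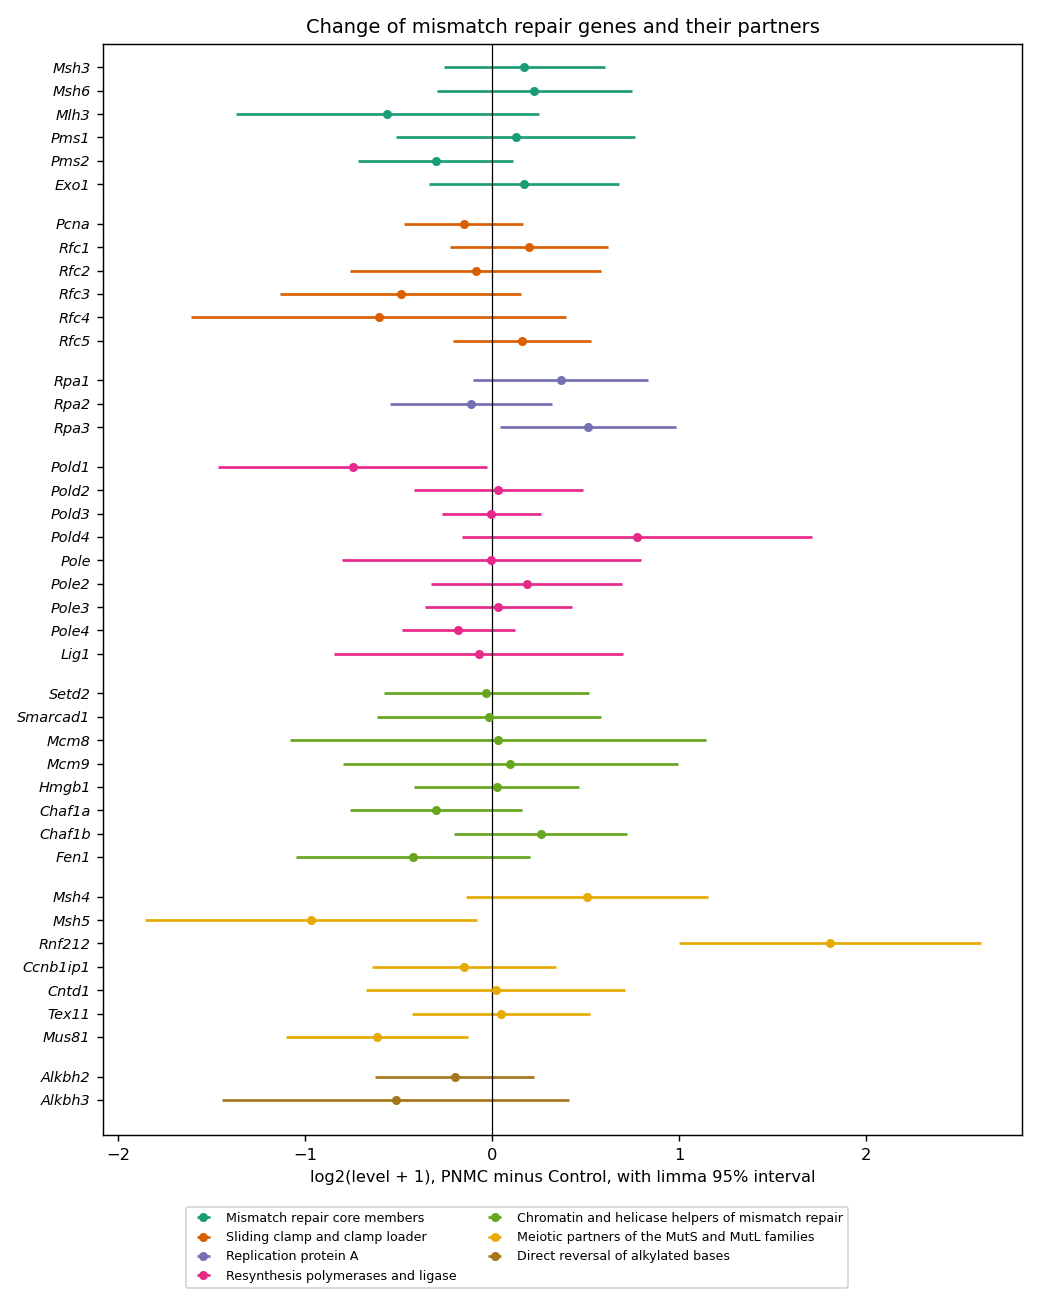
Change in log2(level + 1) with PNMC against control for the 6 repair genes and their 35 tested partners, as points with limma's 95% intervals. The intervals of all 6 repair genes include 0. Those of Rpa3, Pold1, Msh5, Rnf212 and Mus81 do not, though none of these passed the adjusted test. Of all genes tested, 4.99% had an unadjusted limma p under 0.05. Rnf212 passed the filter only through its PNMC values.

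Intervals show which changes remain possible in these libraries. For Msh3, Msh6, Pms2, Pms1 and Exo1 the 95% interval of the log2(level + 1) change lay within 1 in either direction. For Mlh3 it reached -1.37. The bound on that scale is looser in terms of fold for low genes such as Pms1 and Mlh3.

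**Figure D4:**
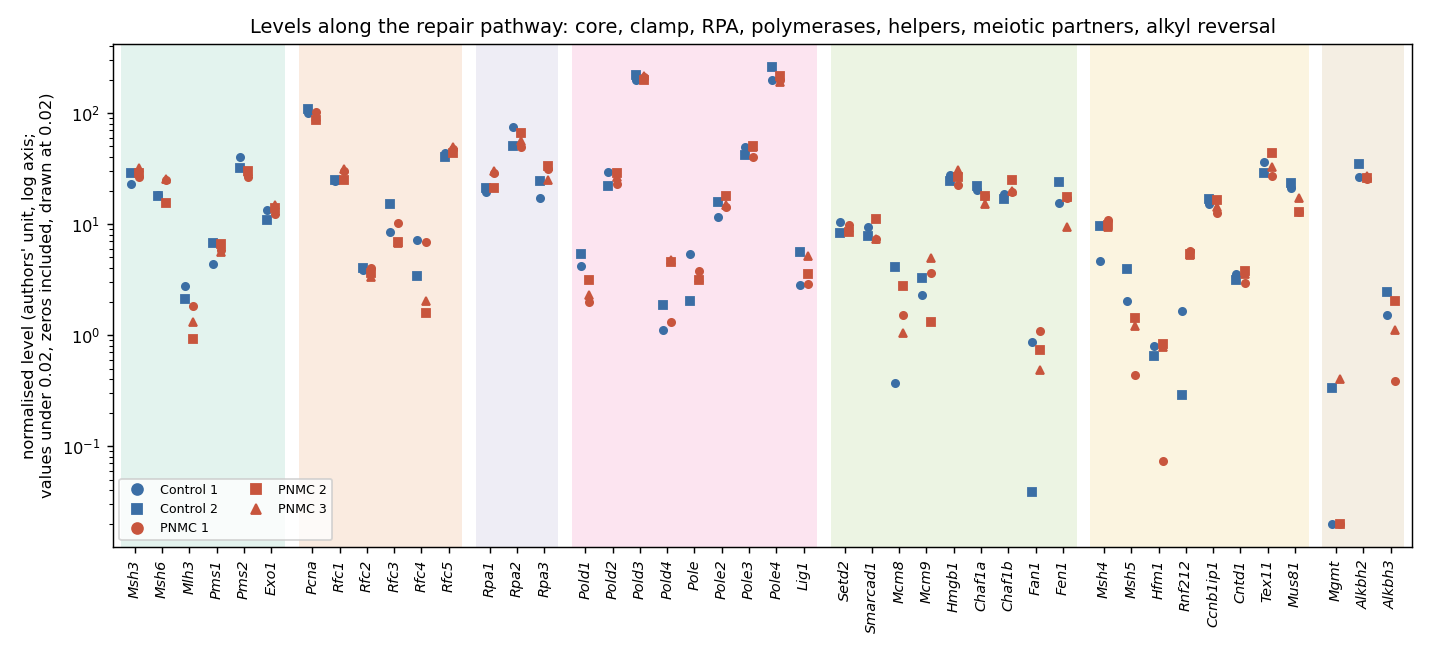
Level of each gene in each library along the repair pathway, on a log axis in the authors' unit, with values under 0.02 drawn at 0.02. Shaded blocks are the 6 repair genes and the 6 partner lists. Pold3, Pole4 and Pcna have the highest listed levels and Mgmt is among the lowest.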

How the data were processed

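The authors deposited 1 table with a normalised signal per gene symbol and library. Named in the submitters' processing notes are the build GRCm39, DESeq2 1.16.1, HISAT2 2.0.5, HTSeq and Trimmomatic. The unit, the annotation and the tool behind the values are not stated in these sources. Per the labels' protocols, TRIzol was used for extraction and Smart-seq2, which keeps no strand, for the libraries. Columns were matched to samples by title.

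The filter required 1 or more in 2 or more libraries and kept 12734 of 32285 genes. The transformed values, log2(value + 1), were fitted with limma 3.58.1 in R 4.3.3 (trend, robust variances, no covariate) and p-values adjusted over all genes at 0.05. The design was written for counts or normalised values, and the second applied. Ratios were compared with scipy 1.17.1 in Python 3.11.15. The fit was tested on simulated data.

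The members and lists were chosen with earlier results of these data known. Named genes were the members, the 3 of smallest p in each partner list with Pcna, Rpa1, Pold1, Lig1, Setd2, Msh4 and Msh5, the 2 highest markers per marker list, and the 2 genes most correlated with each member. Pold3, Mgmt, Cd74, Zp3, Ovgp1 and Foxj1 were added after their values were seen, and the neighbours for their position. Lengths and neighbours are from GENCODE M21 (GRCm38) and promoters, of 4 of the 6 members, from RefSeq. A result on 1 neighbouring gene is not reported here.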

Additional observations from a re-analysis of the deposited data

How the results depend on the processing

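The settings changed in turn were the pseudocount (0.1), the filter (none, or a minimum of 10 in 2 libraries), the scaling (quantile or median), limma's trend and robust variances (both off), a replicate block, and each library left out. No member passed in any setting, and the lowest adjusted p was 0.854, for Msh6 without PNMC library 2. Pms2 and Mlh3 stayed lower, and Msh3, Msh6 and Exo1 higher, in every setting that gave a value; Mlh3 and Pms1 have none at the minimum of 10. Where a control was left out, the remaining one was assumed to vary like the PNMC libraries.

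With each library left out, the count of genes past the threshold ran from 0 to 1, the 1 (Gm13103) without PNMC library 1. The log2 difference of Pms1 ran from -0.15 without control library 1 to 0.40. The median over the 6 repair genes ran from -0.0578, also without control library 1, to 0.13. After median scaling it was 0.23, where that of all genes tested moved from -0.05 to 0.03. The median of the chromatin and helicase helpers ran from -0.0927 to 0.0293. At the minimum of 10, which leaves fewer genes, it was -0.14, that of the meiotic partners -0.15 and that of the clamp and loader 0.00324. The Msh6 to Msh3 difference ran from -0.12 to 0.27, and was below 0 without control library 2 (-0.11) and without PNMC library 1 (-0.12). The Pms2 to Pms1 difference ran from -0.87 to 0.0158, the latter without control library 1. Beyond the libraries left out, the cause of these moves was not tested.

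Replicate numbers 1 and 2 occur in both groups, but same-numbered libraries did not deviate together (r = -0.0585 and -0.0433 over 12734 genes). The deviations of the 2 controls from their mean mirror each other, so these 2 values of r are not independent. The replicate block called 0 genes and gave Msh3 0.11, Msh6 0.11, Exo1 0.12, Pms1 0.17, Pms2 -0.32 and Mlh3 -0.56; it takes nothing from PNMC library 3, which has no control of its number. Unknown depth limits statements on genes near the filter, such as Mlh3.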
